A study of Homo sapiens with 6 samples.

Results

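Levels of 10 long noncoding RNAs were followed in Ker-CT keratinocytes after knockdown of the histone methyltransferase KMT2C. The genes were chosen by name, and all 10 had a row among the 58302 of the deposited count matrix. They comprise 3 nuclear-retained RNAs (MALAT1, NEAT1 and KCNQ1OT1), 5 host genes of small nucleolar RNAs, or snoRNAs (GAS5, SNHG1, SNHG5, SNHG8 and SNHG12), and 2 further transcripts (MIR205HG and CYTOR). All 10 were among the 15063 genes with enough counts to be tested. Per the labels, 3 libraries came from cells given siRNA against KMT2C (siKMT2C) and 3 from cells given negative-control siRNA (siNC). Ker-CT is an established line of human keratinocytes that carries telomerase and CDK4 as immortalising transgenes, in both groups alike. Every culture in both groups was also held for 24 h in the M5 cytokine mixture (oncostatin M, IL-22, IL-17A, TNF-α and IL-1α, 10 ng/ml of each), and no unstimulated culture was used here. Per the series title, the study asked what loss of KMT2C does to gene expression in keratinocytes with a psoriasis-like state. The labels do not say that the 3 libraries of a group came from separate cultures, so p-values measure the spread between libraries, which may be technical.

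Long noncoding RNAs act as RNA and differ by where they reside. MALAT1 is an unspliced transcript of nuclear speckles, the bodies that hold splicing factors. NEAT1 is the scaffold around which paraspeckles assemble, and KCNQ1OT1 is an imprinted antisense transcript that silences neighbouring genes on the paternal chromosome. The snoRNA hosts are spliced genes whose introns release snoRNAs, which guide the chemical modification of ribosomal RNA. Their exons leave a spliced RNA that is often degraded by nonsense-mediated decay, and GAS5 and several relatives begin with a 5′ terminal oligopyrimidine (TOP) tract, as ribosomal protein mRNAs do. In keratinocytes MIR205HG hosts miR-205, a microRNA abundant in squamous epithelium, and CYTOR is a cytoplasmic transcript described in proliferating cells.

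The libraries held 15921870 to 16414777 counts in siKMT2C and 14409277 to 17539519 in siNC, of which the 10 RNAs together took 0.0785% to 0.0891%. KMT2C itself stood at 32.0, 30.8 and 27.3 CPM (counts scaled to a common library size, here by TMM) in siKMT2C, against 87.9, 82.0 and 72.6 CPM in siNC. Its fall was called (edgeR adjusted p = 0.00786), although not without siKMT2C replicate 1 (0.0634), siKMT2C replicate 2 (0.0507) or siNC replicate 2 (0.0593). The keratinocyte keratin KRT14 averaged 4915 CPM in siKMT2C and 4686 CPM in siNC, and the leukocyte, endothelial and melanocyte genes PTPRC, CD3E, PECAM1, CDH5, DCT and TYR had a count of 0 in every library. The keratinocyte marker list was at a median log2 fold change of -0.33, with 8 of 10 members negative. None was called by edgeR, beside 1.5% of all genes, and 2 had an unadjusted edgeR p under 0.05, beside 16.9%. DESeq2 called 2 of them lower, beside 3.01% of all genes. The summed level of these markers was 13130 to 18320 CPM in siKMT2C and 13340 to 21160 CPM in siNC. Their part in the values of the RNAs was not tested. The fibroblast markers summed to 11.8 to 13.8 CPM in siKMT2C and 19.3 to 26.2 CPM in siNC. COL1A1 (10.6 CPM in siKMT2C, 18.1 CPM in siNC) and DCN (1.05 CPM in siKMT2C, 3.15 CPM in siNC) were separate by group and called by DESeq2 but not by edgeR (adjusted p = 0.103 for COL1A1 and 0.0589 for DCN). COL1A1 made up most of the sum. COL3A1 (0.789 CPM in siKMT2C, 0.446 CPM in siNC) and LUM (0.472 CPM in siKMT2C, 0.291 CPM in siNC) went the other way, with overlapping groups. The leukocyte markers summed to 13.0 to 14.5 CPM in siKMT2C and 9.67 to 14.5 CPM in siNC, most of it CD68. CD14 was at 0.209 CPM in siKMT2C and 1.00 CPM in siNC, with separate groups and a call with the replicate block but not by edgeR without it (adjusted p = 0.0534). The melanocyte markers summed to 2.03 to 3.06 CPM in siKMT2C and 2.31 to 3.38 CPM in siNC. In bulk RNA, fewer cells of a type and less RNA per cell cannot be told apart. Of the endothelial markers 1 was tested, KDR, which fell to 3.21 CPM in siKMT2C, against 9.66 CPM in siNC (edgeR adjusted p = 0.0135). VWF and TEK held 3 counts each over the 6 libraries, against 633 for KDR. The fall of KDR is thus that of 1 gene and not of a set of endothelial markers.

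None of the 10 RNAs passed the edgeR test at an adjusted p under 0.05, where 1.5% of all genes were called (226 of 15063). At an unadjusted p under 0.05 there were 2, SNHG1 and SNHG8, beside 16.9% of all genes. DESeq2 called 1, SNHG8, beside 5.68% of all genes, and limma-voom called 0, beside 1.41%. The log2 fold change was positive for 9 of the 10, beside 49.7% of all genes. The groups did not overlap for 3 of the 10 (30%), beside 24.1% of all genes, and these 3 were the host genes SNHG1, SNHG8 and SNHG12, each higher in siKMT2C. An exact two-sided permutation test of 3 against 3 libraries cannot go below p = 0.1, the value each of these 3 reached.

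**Figure D1:**
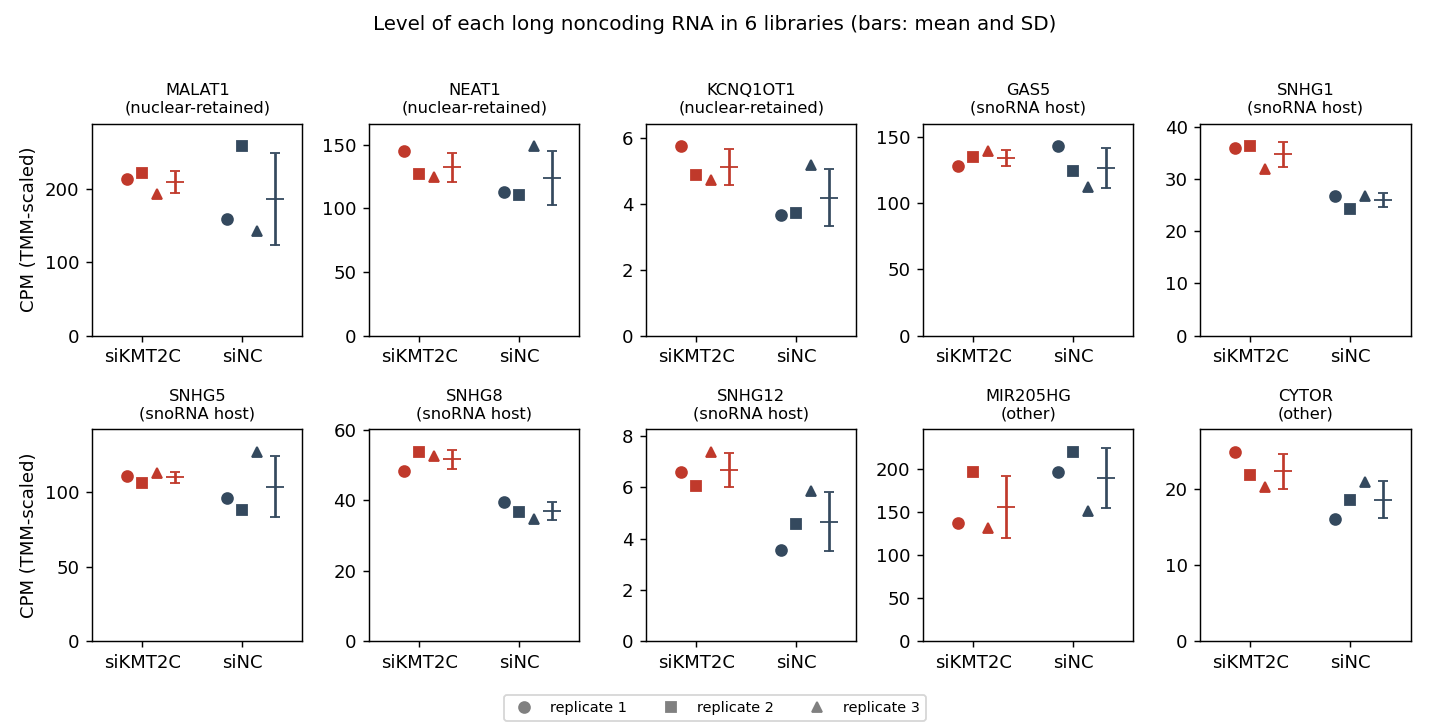
CPM (y axis of each panel, from 0) of the 10 RNAs in the 3 siKMT2C and 3 siNC libraries (x axis); symbols mark the replicate and bars the mean and SD. The groups are separate for SNHG1, SNHG8 and SNHG12, and siNC replicate 2 stands at 257.8 CPM for MALAT1, the highest value of that RNA.

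Among the nuclear-retained RNAs, MALAT1 (ENSG00000251562, chr11:65497688-65506516, plus strand, a single merged exon in GENCODE 29 on GRCh38) had 213.3, 221.7 and 192.7 CPM in siKMT2C libraries, against 158.3, 257.8 and 142.2 CPM in siNC libraries. The siNC libraries lay on both sides of the siKMT2C libraries, and siNC replicate 2 was the highest of all. The means were 209.2 ± 14.9 CPM in siKMT2C and 186.1 ± 62.6 CPM in siNC (SD, n = 3 each), a log2 fold change of 0.17 (SE 0.22, 95% interval -0.34 to 0.68, edgeR adjusted p = 0.76). The siNC spread came largely from replicate 2: without it the log2 fold change of MALAT1 was 0.48 (edgeR adjusted p = 0.3), while it was 0.07 without siNC replicate 1 and 0.0017 without siNC replicate 3. The coefficient of variation of MALAT1 was 7.13% in siKMT2C and 33.6% in siNC.

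NEAT1 (ENSG00000245532, chr11:65422774-65445540, plus strand) lies on the same chromosome arm as MALAT1 and had 145.4, 127.2 and 124.6 CPM in siKMT2C, against 113.1, 110.6 and 148.7 CPM in siNC. The groups overlapped, because siNC replicate 3 was above all siKMT2C libraries while the other siNC libraries were below them. The log2 fold change of NEAT1 was 0.09 (SE 0.15, 95% interval -0.26 to 0.45, edgeR adjusted p = 0.82). It was 0.016 without siNC replicate 2, 0.021 without siKMT2C replicate 1, 0.029 without siNC replicate 1 and 0.24 without siNC replicate 3. The siNC library highest for NEAT1, replicate 3, was the lowest for MALAT1, and replicate 2, the highest for MALAT1, was the lowest for NEAT1.

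KCNQ1OT1 (ENSG00000269821, chr11:2608328-2699994, minus strand) lies wholly inside KCNQ1 on the opposite strand. It had 5.75, 4.88 and 4.73 CPM in siKMT2C, against 3.66, 3.74 and 5.18 CPM in siNC, on 457 counts in all. Only siNC replicate 3 reached into the siKMT2C range. The log2 fold change was 0.29 (SE 0.22, 95% interval -0.22 to 0.80, edgeR adjusted p = 0.572), and 0.46 without siNC replicate 3. KCNQ1 itself had a count of 0 in every library, so reads of the sense gene were not seen. Per the labels an mRNA kit was used, and neither the selection of RNA by its tail nor strand is given there; MALAT1 and the long form of NEAT1 are known to end without a conventional poly(A) tail.

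The RNAs whose groups were separate were all host genes. Their sequences around the transcription start are shown because the TOP tract, where present, sits at the first bases of the RNA. Each line gives 80 bases of GRCh38.p14 from RefSeq, 40 before and 40 after the start, on the gene's strand. Capitals mark TATAA, searched 40 to 11 bases before the start on both strands, and the run of at least 6 C or T nearest to the start on the gene's strand.
SNHG8 (chr4:118278722-118278801, plus strand): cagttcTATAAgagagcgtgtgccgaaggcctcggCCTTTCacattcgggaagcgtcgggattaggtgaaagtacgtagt
SNHG1 (chr11:62855846-62855925, minus strand): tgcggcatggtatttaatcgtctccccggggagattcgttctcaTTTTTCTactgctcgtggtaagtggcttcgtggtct
SNHG12 (chr1:28581834-28581913, minus strand): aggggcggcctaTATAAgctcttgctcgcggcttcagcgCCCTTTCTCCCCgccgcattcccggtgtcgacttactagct
SNHG5 (chr6:85678694-85678773, minus strand): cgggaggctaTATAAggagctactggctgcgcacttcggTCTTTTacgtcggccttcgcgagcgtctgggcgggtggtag
GAS5 (chr1:173869006-173869085, minus strand): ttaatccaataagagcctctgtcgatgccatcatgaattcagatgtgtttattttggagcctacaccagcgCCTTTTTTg

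In SNHG8, SNHG1, SNHG12 and SNHG5 the pyrimidine run begins within 5 bases of the RefSeq start. In GAS5 it begins 32 bases after it, and the RefSeq start of GAS5 lies upstream of the gene's span in GENCODE 29. The RefSeq window of SNHG12 (chr1:28581834-28581913) lies wholly inside its GENCODE 29 span, which on the minus strand begins at 28583132. A run of at least 6 C or T was in all 5 host windows and in 58.7% of 35116 RefSeq promoter windows of that length. TATAA on the gene's strand was in 3 of the 5 host windows, 34 bases before the start in SNHG8, 30 in SNHG5 and 28 in SNHG12, and in 4.06% of all windows. On the other strand it was in 0 of the 5 and in 1.91% of all. TATAA and the run share no base in these windows. These letters are a description of the windows, and no binding was measured.

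SNHG8 (ENSG00000269893, chr4:118278709-118279823, plus strand) hosts SNORA24, a guide of pseudouridylation. It had 48.5, 53.8 and 52.8 CPM in siKMT2C, against 39.6, 36.6 and 34.7 CPM in siNC. Every siKMT2C library was above every siNC library. The means were 51.7 ± 2.80 CPM in siKMT2C and 37.0 ± 2.50 CPM in siNC (SD, n = 3 each), a ratio of 1.40 and a log2 fold change of 0.48 (SE 0.13, 95% interval 0.19 to 0.78). The edgeR adjusted p was 0.114 and did not pass, while DESeq2 gave an adjusted p of 0.0456 for nearly the same log2 fold change. The row of SNORA24 held 18, 22 and 15 counts in siKMT2C and 15, 14 and 11 counts in siNC, too few to follow the snoRNA itself (log2 fold change 0.49, edgeR adjusted p = 0.52).

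SNHG1 (ENSG00000255717, chr11:62851988-62855914, minus strand) hosts 7 annotated snoRNAs. It had 36.0, 36.3 and 32.0 CPM in siKMT2C, against 26.8, 24.4 and 26.8 CPM in siNC. The groups were separate, and the lowest siKMT2C library was the third replicate. The means were 34.8 ± 2.39 CPM in siKMT2C and 26.0 ± 1.42 CPM in siNC (SD, n = 3 each), a log2 fold change of 0.42 (SE 0.13, 95% interval 0.11 to 0.72, edgeR adjusted p = 0.163).

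SNHG12 (ENSG00000197989, chr1:28578538-28583132, minus strand) hosts 5 annotated snoRNA entries, the name SNORA16A being repeated among them. It was the least abundant host, with 554 counts in all. It had 6.61, 6.04 and 7.37 CPM in siKMT2C, against 3.55, 4.57 and 5.86 CPM in siNC. The groups were separate by a narrow margin, between siKMT2C replicate 2 and siNC replicate 3. The log2 fold change was 0.52, the largest point value of the 10, with a wide interval (SE 0.23, 95% interval -0.02 to 1.05, edgeR adjusted p = 0.308).

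The other hosts were more abundant and showed no separation. GAS5 (ENSG00000234741, chr1:173863900-173868882, minus strand), known for accumulating when growth stops, had 127.9, 135.1 and 139.4 CPM in siKMT2C, against 142.8, 124.5 and 112.2 CPM in siNC. Its siNC libraries spanned the whole siKMT2C range. GENCODE 29 as read here placed 0 snoRNA genes inside GAS5 on its strand, so its place among the hosts does not come from that annotation. The log2 fold change of GAS5 was 0.08 (SE 0.13, 95% interval -0.22 to 0.39, edgeR adjusted p = 0.804) and turned to -0.0027 without siNC replicate 3. SNHG5 (ENSG00000203875, chr6:85660950-85678748, minus strand) had 110.9, 106.1 and 113.0 CPM in siKMT2C, against 96.2, 88.4 and 127.0 CPM in siNC. In SNHG5 siNC replicate 3 was above and the other siNC libraries below all siKMT2C libraries. Its log2 fold change was 0.08 (SE 0.16, 95% interval -0.28 to 0.45, edgeR adjusted p = 0.849) and became -0.021 without siNC replicate 2, which was the lowest library.

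**Figure D2:**
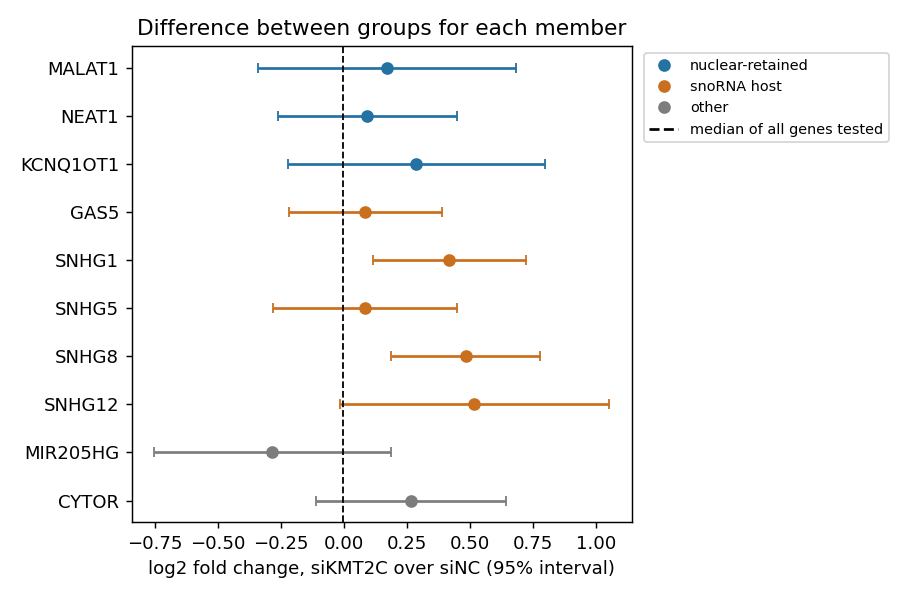
Log2 fold change of siKMT2C over siNC (x axis) of the 10 RNAs (y axis), with 95% intervals from edgeR; the dashed line is the median of all genes tested. The intervals of SNHG1 (0.11 to 0.72) and SNHG8 (0.19 to 0.78) lie above 0, without adjustment for the number of genes.

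Set side by side, the nuclear-retained RNAs had a median log2 fold change of 0.17 and the host genes 0.42, beside -0.0025 for all genes tested. The nuclear-retained median was 0.07 without siNC replicate 1. Each gene was centred on its mean log2(CPM + 0.5), and the average over the class was 0.14, 0.15 and 0.19 for the hosts in siKMT2C and -0.18, -0.22 and -0.07 in siNC. For the nuclear-retained RNAs it was 0.21, 0.09 and -0.0015 in siKMT2C and -0.25, -0.02 and -0.02 in siNC. The averages of both classes were thus separate by group, that of the nuclear-retained RNAs by a narrow margin (-0.0015 against -0.02). Taken singly, MALAT1, NEAT1 and KCNQ1OT1 each had overlapping groups. The difference between the classes, nuclear-retained minus host, was 0.07, -0.06 and -0.19 in siKMT2C and -0.08, 0.20 and 0.05 in siNC, and the groups overlapped. The summed CPM of the nuclear-retained RNAs over that of the hosts was 1.10, 1.05 and 0.935 in siKMT2C and 0.890, 1.34 and 0.966 in siNC. Neither measure separated the groups, and the difference between the classes was not tested because the members were chosen with results of these data known.

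MIR205HG (ENSG00000230937, chr1:209428820-209432838, plus strand) was the 1 RNA with a negative value. It had 137.6, 197.1 and 131.9 CPM in siKMT2C, against 196.8, 219.8 and 151.7 CPM in siNC. The groups overlapped: siKMT2C replicate 2 lay among the siNC libraries. The log2 fold change was -0.28 (SE 0.20, 95% interval -0.75 to 0.18, edgeR adjusted p = 0.536). It was -0.49 without siKMT2C replicate 2, -0.43 without siNC replicate 3, -0.17 without siNC replicate 2 and -0.18 without siKMT2C replicate 3. The gene carries the hairpin of miR-205, whose mature 5′ arm is shown with its seed, bases 2 to 8, in capitals (RefSeq, GRCh38.p14, chr1:209432166-209432187, plus strand).
hsa-miR-205-5p: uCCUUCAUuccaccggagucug
These libraries count the host transcript, and the mature microRNA was not measured.

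CYTOR (ENSG00000222041, chr2:87454781-87636740, plus strand) had 24.9, 21.8 and 20.3 CPM in siKMT2C, against 16.1, 18.6 and 21.0 CPM in siNC. Only siNC replicate 3 reached into the siKMT2C range, and the log2 fold change was 0.26, or 0.17 without siNC replicate 1 (SE 0.16 with all libraries, 95% interval -0.11 to 0.64, edgeR adjusted p = 0.467). Its near copy on the same chromosome, MIR4435-2HG, had 34.1, 16.1 and 14.9 CPM in siKMT2C and 12.1, 16.2 and 26.0 CPM in siNC, with overlap and a log2 fold change of 0.26 (SE 0.39). Reads may have been divided between these copies, and both levels are uncertain.

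Abundance was uneven. By mean CPM, MALAT1 had rank 836 of the 15063 genes, MIR205HG rank 1034, GAS5 rank 1500, NEAT1 rank 1538 and SNHG5 rank 1948. SNHG8 (rank 5016), SNHG1 (rank 6483) and CYTOR (rank 7951) lay in the middle, while SNHG12 (rank 11156) and KCNQ1OT1 (rank 11460) were among the less abundant genes, so the description as abundant does not hold for them. Per kilobase of merged GENCODE 29 exons, SNHG8 had 56.0 ± 3.03 CPM in siKMT2C and 40.1 ± 2.71 CPM in siNC (SD, n = 3 each), and MIR205HG 44.2 ± 10.3 CPM in siKMT2C and 53.8 ± 9.85 CPM in siNC. On that scale SNHG5 had 39.2 ± 1.26 CPM per kilobase in siKMT2C and 37.0 ± 7.28 in siNC, GAS5 36.9 ± 1.6 in siKMT2C and 34.8 ± 4.23 in siNC, and MALAT1 23.7 ± 1.69 in siKMT2C and 21.1 ± 7.09 in siNC. In siKMT2C, MIR205HG, SNHG5 and GAS5 did not differ beyond their spread, and in siNC, SNHG8, SNHG5 and GAS5 did not. SNHG1 (9.25 in siKMT2C, 6.92 in siNC), NEAT1 (5.81 in siKMT2C, 5.45 in siNC), SNHG12 (1.56 in siKMT2C, 1.09 in siNC), CYTOR (1.26 in siKMT2C, 1.05 in siNC) and KCNQ1OT1 (0.0559 in siKMT2C, 0.0457 in siNC, all CPM per kilobase) followed.

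The deposited FPKM values placed several of these RNAs otherwise. A gene's count divided by its FPKM gives the length the authors' scaling used, and in 12145 genes with several transcripts the median ratio of that length to the sum of all distinct annotated exons was 1.0. Overlapping exons of alternative transcripts were thus counted more than once in length, and that length was above the merged one in 97.7% of those genes. The excess was 3.80 times for SNHG1 and for SNHG5 and 3.23 times for GAS5, against 1.91 times for MALAT1, 1.15 times for NEAT1 and 1 for KCNQ1OT1. On average GAS5 was above MALAT1 per merged kilobase. In the deposited FPKM, GAS5 averaged 11.3 ± 0.469 in siKMT2C and 10.9 ± 1.31 in siNC, and MALAT1 12.2 ± 0.807 in siKMT2C and 11.1 ± 3.67 in siNC (SD, n = 3 each). GAS5 was above MALAT1 there in 3 of 6 libraries, so the deposited FPKM gave no firm order of the pair. For CYTOR the implied length of 6.24 kb was shorter than the 17.7 kb of merged exons, so the authors' annotation of it was another one and its level per length is uncertain. The fold changes are untouched, because a gene has the same length in all 6 libraries.

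**Figure D3:**
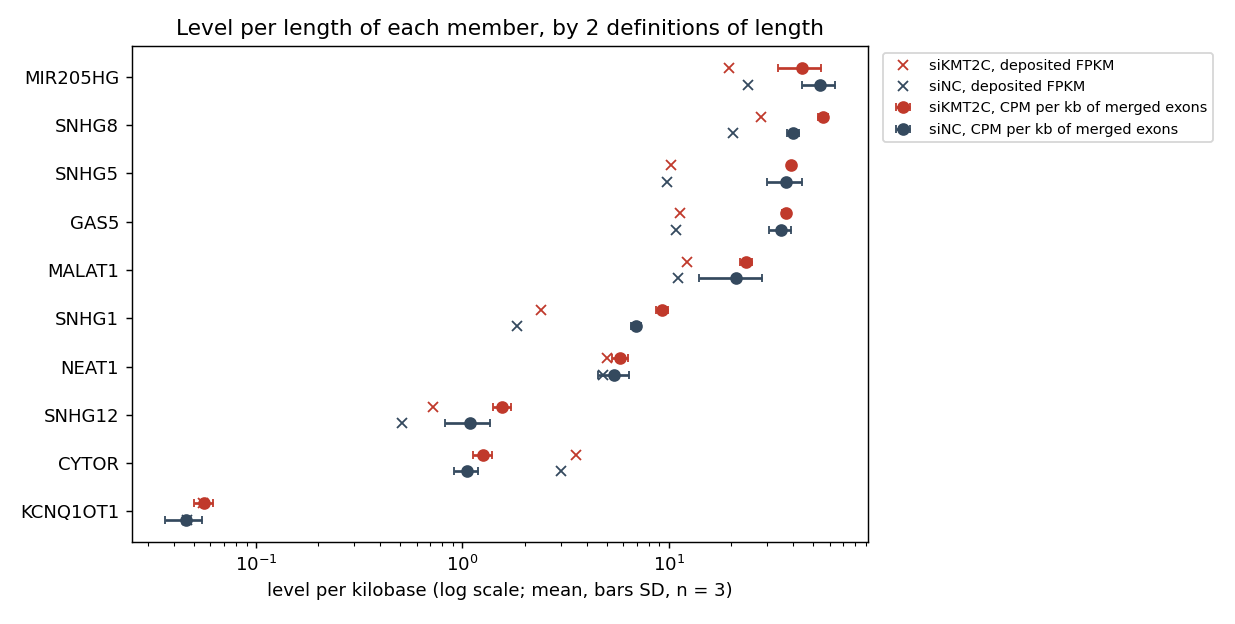
Level per kilobase (x axis, log scale) of the 10 RNAs (y axis): filled points are CPM per kilobase of merged exons with SD over 3 libraries, crosses are the mean deposited FPKM, in siKMT2C and siNC. The crosses lie farthest left of the points for SNHG1 and SNHG5, coincide with them for KCNQ1OT1 and lie right of them for CYTOR.

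Other snoRNA hosts lay on both sides of 0. Of 22 tested, 14 had a positive log2 fold change, and none was called by edgeR, DESeq2 or limma-voom. An unadjusted p under 0.05 was reached by 2, beside 16.9% of all genes. Their median log2 fold change was 0.10. SNHG16 (0.40, SE 0.14), SNHG4 (0.45) and SNHG15 (0.38) had positive values, and SNHG11 (-0.51, SE 0.20) a negative one, with edgeR adjusted p from 0.216 to 0.382. In 5 of the 22 all siKMT2C libraries were above all siNC libraries, and in 1 they were below, beside 11.8% and 12.3% of all genes.

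Genes for the proteins of snoRNPs, the particles in which snoRNAs work, and for their assembly were positive in 17 of 17. Of all genes 49.7% were positive. An unadjusted edgeR p under 0.05 was reached by 6 of the 17, beside 16.9% of all genes. In 6 all siKMT2C libraries were above all siNC libraries and in 0 they were below, beside 11.8% and 12.3% of all genes. NOLC1, the nucleolar phosphoprotein that binds snoRNPs in transit, rose to 174.5, 156.8 and 191.2 CPM in siKMT2C, against 43.8, 52.6 and 52.9 CPM in siNC (log2 fold change 1.81, SE 0.14, edgeR adjusted p = 0.00389). It was the 1 member called (1 in 17, beside 0.69% of all genes called higher), and it was called in all settings tried, at an adjusted p of 0.0471 or less. The pseudouridine synthase DKC1 (0.72, SE 0.21), the box C/D core protein NOP56 (0.38, SE 0.12) and the H/ACA protein GAR1 (0.47, SE 0.19) did not pass, with edgeR adjusted p from 0.135 to 0.265. The median log2 fold change of the 17 was 0.30, and DESeq2 called 2 of them higher, beside 2.67% of all genes.

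Of 90 mRNAs with a TOP tract, which encode ribosomal proteins and translation factors, 77 were positive, beside 49.7% of all genes. Their median log2 fold change was 0.12. None was called by edgeR, DESeq2 or limma-voom, and 2 had an unadjusted p under 0.05, beside 16.9% of all genes. In 13 of the 90 all siKMT2C libraries were above all siNC libraries and in 0 they were below, beside 11.8% and 12.3% of all genes. RPS12 (0.36, SE 0.12), RPL27 (0.30, SE 0.12), RPL9 (0.29) and EIF4B (0.22) had the smallest p-values (edgeR adjusted p from 0.165 for RPS12). The mean centred level of the list was 0.05, 0.04 and 0.11 in siKMT2C and -0.08, -0.09 and -0.02 in siNC, so the groups were separate here too, by less than for the 5 hosts. For the snoRNP genes the same measure was 0.20, 0.18 and 0.21 in siKMT2C and -0.30, -0.25 and -0.04 in siNC.

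**Figure D4:**
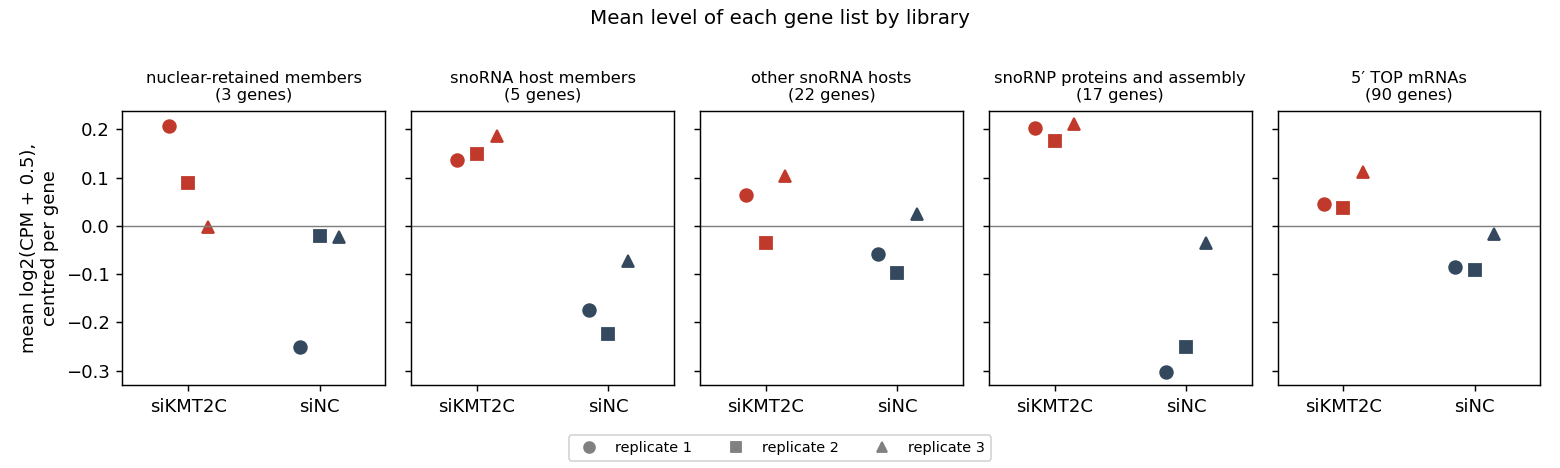
Mean over a list's tested genes of log2(CPM + 0.5) centred per gene (y axis) in each siKMT2C and siNC library (x axis); symbols mark the replicate. In the 5 hosts, the snoRNP genes and the TOP mRNAs all siKMT2C libraries are above all siNC libraries. The same holds by a narrow margin for the nuclear-retained RNAs (-0.0015 in siKMT2C replicate 3, -0.02 in siNC replicate 2). Among the other hosts siKMT2C replicate 2 (-0.04) is below siNC replicate 3 (0.02).

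Factors of nonsense-mediated decay, which removes many spliced host RNAs, had a median log2 fold change of -0.11. Of the 16, 10 were negative and 6 positive, beside 49.7% of all genes positive. None was called by edgeR, DESeq2 or limma-voom, beside 1.5%, 5.68% and 1.41% of all genes. An unadjusted edgeR p under 0.05 was reached by 0, beside 16.9% of all genes. The groups were separate for 1, SMG6, lower in siKMT2C, beside 12.3% of all genes. The endonuclease SMG6 (-0.34, SE 0.16) and the exon junction adaptor UPF3B (-0.39, SE 0.19) were foremost (edgeR adjusted p = 0.333 and 0.348). UPF1, the central helicase, had a log2 fold change of -0.16 (SE 0.18) and is named here although its p was not among the smallest.

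The proteins of the bodies that hold NEAT1 and MALAT1 were centred near 0. Of 29 paraspeckle proteins 17 were positive, with a median of 0.02. None was called by edgeR, DESeq2 or limma-voom, and 3 had an unadjusted p under 0.05, beside 16.9% of all genes. These 3 were FIGN (-0.56, SE 0.17), the RNA-binding protein RBMX (0.32, SE 0.13) and ZNF24 (-0.35, SE 0.15). PSPC1, a core paraspeckle protein, had 33.4, 34.7 and 38.1 CPM in siKMT2C, against 44.2, 40.8 and 44.0 CPM in siNC (log2 fold change -0.28, SE 0.13, edgeR adjusted p = 0.316). Its groups were separate, whereas SFPQ (0.08) and NONO (0.02), the other core proteins and named here for that role, overlapped. Of 22 nuclear speckle genes 12 were positive, with a median of 0.03, and none was called by any of the 3 tools. In 3 of the 22 all siKMT2C libraries were above all siNC libraries and in 2 they were below, beside 11.8% and 12.3% of all genes. An unadjusted p under 0.05 was reached by 1, RNPS1 (0.40, SE 0.14, edgeR adjusted p = 0.194), beside 16.9% of all genes. SRSF6 (-0.25), SRSF3 (0.23) and SRRM2 (-0.25), which encode splicing factors and a speckle scaffold, followed.

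Genes beside the 10 RNAs were examined because several of these RNAs share a promoter region or a domain with a coding gene. Of 20 tested, 12 were positive, beside 49.7% of all genes. None was called by edgeR, beside 1.5% of all genes, and 1 by DESeq2, beside 5.68%. In 4 of the 20 all siKMT2C libraries were above all siNC libraries and in 3 they were below, beside 11.8% and 12.3% of all genes. An unadjusted p under 0.05 was reached by 5 of the 20, beside 16.9% of all genes. The imprinted domain of KCNQ1OT1 held 3 of those 5. PHLDA2, an imprinted growth regulator 228279 bases away, had 88.6, 75.4 and 77.0 CPM in siKMT2C, against 28.8, 45.5 and 48.9 CPM in siNC, and the groups were separate. Its log2 fold change was 0.97 (SE 0.21) with an edgeR adjusted p of 0.0681, and it was called with DESeq2 (0.00138), with no filter (0.0242), with the replicate block (0.0384) and without siNC replicate 3 (0.0342). CDKN1C, the cyclin-dependent kinase inhibitor p57, had 1.53, 1.28 and 1.11 CPM in siKMT2C, against 2.12, 3.11 and 2.87 CPM in siNC (-1.04, SE 0.28, edgeR adjusted p = 0.116). SLC22A18 had -0.44 (SE 0.16, edgeR adjusted p = 0.207), and the groups were separate for CDKN1C and SLC22A18 too, lower in siKMT2C. The domain's genes thus lay on both sides of 0, with NAP1L4 at 0.11 and CD81 at 0.09, and alleles were not resolved.

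At GAS5, the overlapping gene ZBTB37 on the opposite strand (801 shared bases) had 9.97, 15.8 and 9.64 CPM in siKMT2C, against 25.5, 15.9 and 16.2 CPM in siNC (log2 fold change -0.70, SE 0.27, edgeR adjusted p = 0.241). Its groups were separate by less than 1 CPM. Without strand in the labels, reads of the shared bases cannot be assigned to one gene. SLC3A2, the amino acid transporter heavy chain whose start lies 188 bases from that of SNHG1 on the opposite strand, was at -0.36 (SE 0.21) with overlapping groups, opposite in sign to SNHG1. At SNHG12, TRNAU1AP, which shares 8 bases on the other strand, was at 0.23. Other tested neighbours were SYNCRIP (0.27), TAF12 (0.32), FRMD8 (-0.44), LTBP3 (-0.32), METTL14 (0.26), PRSS12 (-0.19), WDR74 (0.30), LAMB3 (0.07) and SNX14 (-0.07), none called.

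Among 23 other long noncoding RNAs 13 were positive, with a median log2 fold change of 0.08. An unadjusted p under 0.05 was reached by 4, beside 16.9% of all genes. LINC00511 fell to 5.32, 5.40 and 4.55 CPM in siKMT2C, against 8.75, 11.5 and 11.7 CPM in siNC (-1.06, SE 0.19, edgeR adjusted p = 0.0446). It was the 1 long noncoding RNA of these lists that edgeR called (beside 0.81% of all genes called lower), and the call was lost on leaving out any library but siNC replicate 3, with edgeR adjusted p from 0.0713 to 0.195, and with limma-voom (adjusted p = 0.0528). H19 (-1.76, SE 0.51) and TINCR (-1.71, SE 0.60), a transcript of epidermal differentiation, did not pass. H19 averaged 0.412 CPM in siKMT2C and 1.42 CPM in siNC, and TINCR 0.412 CPM in siKMT2C and 1.36 CPM in siNC. MIR100HG (0.56, SE 0.22, edgeR adjusted p = 0.248) was at 74.3 ± 11.3 CPM in siKMT2C and 50.6 ± 13.4 CPM in siNC (SD, n = 3 each).

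Across the 6 libraries some of the RNAs varied together, which is given as a description over 6 points that share library and group. Pearson's r of log2(CPM + 0.5) was 0.93 for NEAT1 with KCNQ1OT1, 0.93 for KCNQ1OT1 with CYTOR, 0.89 for SNHG1 with SNHG8 and 0.89 for NEAT1 with SNHG5. MALAT1 and NEAT1 were at -0.38, and MIR205HG and SNHG5 at -0.78. Among 13171 genes of sufficient level, those most like MALAT1 were PA2G4P5 (0.994), ENSG00000260342 (0.990) and ZNF33A (0.986). Those most like NEAT1 were SLC2A11 (0.988), FAM156A (0.975) and DNAAF5 (0.974), those most like GAS5 were MRPS6 (0.983), B4GALT6 (0.980) and RNASEH2B (0.979), and those most like SNHG1 were UBE2D3-AS1 (0.998), KIF9 (0.993) and DDX56 (0.993).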

How the data were processed

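RNA sequencing of 6 libraries was analysed, 3 siKMT2C and 3 siNC. The authors deposited whole-number read counts per gene and, in the same table, FPKM values, per the file headers. The submitters' processing notes name CASAVA 1.8, TopHat2 2.0.6 and the mouse build mm10. The identifiers are human Ensembl ones, 99.55% of them in GENCODE 29, so mm10 was not used. The human build, annotation and counter are not given in the sources used here.

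Genes were kept by filterByExpr, scaled by TMM and tested, siKMT2C over siNC, with the robust quasi-likelihood F test of edgeR 4.0.16 (R 4.3.3). P-values were adjusted by Benjamini-Hochberg over all 15063 genes, with a threshold of 0.05. CPM uses TMM-scaled library sizes, and the SE is the absolute log2 fold change over the square root of F. On simulated data for this comparison (14833 genes in the step), 2.41% of 83 planted 1.5-fold, 43.6% of 55 2-fold and 95.2% of 62 4-fold changes were recovered. In the same simulation 14 genes without a planted change were called.

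Alternatives were DESeq2 1.42.0, limma-voom (limma 3.58.1), RLE size factors, unscaled library size, a filter of CPM 1 in 3 libraries, no filter, a replicate block and leaving out each library. Members and lists were chosen with earlier results of these data known. Named are the 10 RNAs, all tested neighbours, of each other list the called members and at most 4 with the smallest p, and the 3 most alike genes of 4 members, except that some genes this rule takes are not reported here. Coordinates of genes come from GENCODE 29 (GRCh38), and sequences from RefSeq (GRCh38.p14), which held start windows for 8 of the 10 members. Figures used Python 3.11.15 and matplotlib 3.10.9.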

Additional observations from a re-analysis of the deposited data

How the results depend on the processing

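The log2 fold changes of 9 of the 10 RNAs stayed positive under RLE size factors, library size alone, no filter, a CPM minimum, DESeq2, limma-voom and the replicate block, and 8 of 10 did without siNC replicate 2 or siNC replicate 3. GAS5 ranged from -0.0027 to 0.18 and SNHG5 from -0.021 to 0.25 on leaving out 1 library. Both changed sign there when the lowest siNC library was removed. SNHG8 was called only with DESeq2 (0.48, adjusted p = 0.0456), and its adjusted p was 0.0662 with the replicate block. On leaving out 1 library the median of the hosts ran from 0.35 to 0.44 and that of the nuclear-retained RNAs from 0.07 to 0.24. The count of all genes called was 226, against 855 with DESeq2, 968 with the replicate block and 16 to 620 on leaving out 1 library, the highest without siNC replicate 3. The correlations did not settle whether the replicate numbers pair the libraries. Same-numbered libraries correlated at 0.022, 0.14 and 0.44 after removal of group means. The value for the replicates numbered 3 was the highest of all pairs, while siKMT2C replicate 2 correlated best with siNC replicate 1 (0.36). A batch shared by same-numbered libraries was not tested. Few counts limit KCNQ1OT1 (457 in all) and SNHG12 (554 in all). No scaling moved the median of all genes by more than 0.03 on the log2 scale.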

Other observations

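The snoRNAs themselves could not be followed in this table. Of 943 snoRNA rows 557 had a count of 0 in every library. SNORD25, SNORD28, SNORD50B and SNORA44, which lie in SNHG1, SNHG5 or SNHG12, each had exactly 1 count in all 6 libraries. The same value in every library was held by 339 rows, of which 163 were microRNAs, 83 snoRNAs and 4 protein-coding genes. SNORA61 had 14, 24 and 1 counts in siKMT2C and 16, 11 and 1 counts in siNC, so the third replicate of each group was the low one.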
